A study of Mus musculus with 20 samples.

Results

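The antioxidant enzymes and NRF2 targets described here are 37 genes that encode the regulator NRF2 and its inhibitor KEAP1, the enzymes that make, recycle and conjugate glutathione, the thioredoxin and peroxiredoxin system, the superoxide dismutases, catalase and glutathione peroxidases, and ferritin. They were chosen by name from pathway knowledge and not by a measured value, though with earlier results of these data known. A gene was found when a probe set of the deposited table carried its symbol alone in the platform annotation, which held for 33 of the 37, and each was read from its probe set of highest mean signal over all 20 arrays. Prdx1, Prdx5, Prdx6 and Ftl1 had no such probe set and have no value. All 33 genes passed the filter on low signal, among 11206 genes that did so of 18193 with a single-symbol probe set.

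Livers of male C57BL/6J mice were profiled on 20 Affymetrix arrays after long exposure to gamma rays of 137Cs. In experiment 1 mice were irradiated for 485 days at 0.042, 0.858 or 16.6 mGy per day, for cumulative doses of 20.6, 416 and 8030 mGy. In experiment 2 it was 401 days at 0.05, 1.00 or 20.0 mGy per day, for 20, 401 and 8015 mGy. Mice are named below by the level of their dose-rate, low, medium or high, and by experiment. All mice entered at 8 weeks of age and were irradiated for 22 hours a day, and livers were taken right after exposure ended. Each of the 6 irradiated groups had 3 mice on 1 array each, and the unirradiated controls were 1 array per experiment, a pool of RNA from 3 mice in experiment 1 and from 6 mice in experiment 2. The pools have no spread between mice of their own, 1 strain and 1 sex were used, and no group carried an allele or agent other than the radiation.

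NRF2, encoded by Nfe2l2, is a transcription factor that is held low in unstressed cells by KEAP1, an adaptor that presents it to a ubiquitin ligase. When electrophiles or oxidants modify KEAP1, NRF2 builds up, enters the nucleus with a small MAF partner and binds the antioxidant response element of its target genes. In liver these targets include quinone reductase, the glutamate-cysteine ligase subunits and many glutathione S-transferases, which hepatocytes hold at high levels for the clearance of drugs and peroxides.

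The core of the antioxidant response element is written TGACNNNGC, and its presence near the start sites of the genes shows which of them carry the letters that NRF2 is known to bind. Promoter windows of 300 bases, from 250 before to 50 after each start, were taken from RefSeq sequence (GRCm38.p6) and searched on both strands, where the reverse reads GCNNNGTCA. Of the 33 genes, 28 had a window and 7 of those (25%) held a match, beside 13.99% of 27025 mouse genes. Counted by window, 7 of their 36 windows held a match, beside 4071 (12.39%) of all 32851 windows of that length. Hmox1, Gclc, Gsr, Gsta4 and Sod3 had no window. The matches that lie before the start are shown for 6 genes because several of the results below concern them, with the match in capitals, read 5′ to 3′ on the strand of the gene, and with their distance from the start site of the window. That site is the RefSeq start of the gene for Mgst1, Sod1 and Nfe2l2. For Gclm and Gsta3 it lies 70 and 20 bases inside the outermost start of the gene, and for Txnrd1, which has 3 windows, the match belongs to an alternative start 25255 bases inside the gene.
Gclm (chr3:122245403-122245451, plus strand, 134 bases before the start): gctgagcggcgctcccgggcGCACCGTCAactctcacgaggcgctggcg
Gsta3 (chr1:21240444-21240492, plus strand, 121 bases before the start): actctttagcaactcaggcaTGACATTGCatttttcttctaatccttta
Txnrd1 (chr10:82859094-82859142, plus strand, 92 bases before the start): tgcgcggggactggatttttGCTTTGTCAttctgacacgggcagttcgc
Mgst1 (chr6:138140451-138140499, plus strand, 56 bases before the start): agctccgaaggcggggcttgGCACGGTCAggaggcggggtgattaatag
Sod1 (chr16:90220686-90220734, plus strand, 56 bases before the start): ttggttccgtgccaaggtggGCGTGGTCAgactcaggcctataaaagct
Nfe2l2 (chr2:75704875-75704913, minus strand, 240 bases before the start): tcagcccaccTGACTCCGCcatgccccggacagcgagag
In the seventh gene, Srxn1, the match lies 28 bases after the start. A match describes these letters only and is not a measured binding site, and elements farther from a start lie outside the window.

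The values are MAS5 signals, a linear measure of brightness that the authors scaled, with a trimmed mean of 500 on every array, so the number of arrays, not a read depth, limits their precision. All 8 hepatocyte markers were measured, and their summed signal ran from 369560 to 517130 over the 20 arrays, so the liver label is borne out by its defining markers. Kupffer cell markers (8 of 8) summed to between 11379 and 19587 and endothelial markers (6 of 6) to between 6557.7 and 9239.7. Levels of different probe sets cannot be compared with each other, and all comparisons are of 1 probe set across arrays. Differences are given as log2(signal + 7.12), which understates the change of dim genes, with the standard error of the limma fit and p-values adjusted over all 11206 genes. The p-values rest on the residual spread of the fit, which comes from the spread between mice of a group. Outside the interaction fits it also holds differences in the level effect between the experiments. Each pool counted as 1 array with the spread of a single mouse, and the spread of pools was not measured. A count of mice such as 5 of 6 is of those on the stated side of their pool. Between irradiated levels it is of those on that side of the mean of the other level in their experiment. The mice of an experiment share its pool, so counts against control are not independent agreements between mice. The share of all genes with every mouse on the same side of its pool was not counted, so these counts set no gene apart.

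Whether the antioxidant genes respond to the dose-rate was asked first, in 6 contrasts between the levels. None of the 33 genes passed an adjusted p of 0.05 by limma in any of them. For high against control 9 of all 11206 genes passed (0.0803%), for medium against control 4 (0.0357%) and for low against control 1 (0.00892%). High against low, medium against low and high against medium gave 0 of 11206 (0%, 0% and 0%). At an unadjusted p under 0.05 the counts of antioxidant genes were 0, 0, 2, 5, 3 and 0 in the same order, beside 811, 678, 434, 1127, 891 and 424 of all genes. The 5 genes of high against low are 15.2% of the list, where 10.1% of all genes reached that level, and the 3 of medium against low are 9.09%, where 7.95% did. The 2 of low against control are 6.06%, where 3.87% did. In high against control, medium against control and high against medium, with no gene of the list, 7.24%, 6.05% and 3.78% of all genes did.

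On the probe sets used, the differences were small as well as uncalled. For high against control 17 of the 33 genes were above 0 and 16 below, with a median of 0.01 beside 0.01 over all genes, and the list's median was -0.03 with quantile normalization and -0.10 with median-centred arrays, where that of all genes was -0.09. The median was -0.00 for medium against control and -0.04 for low against control, beside 0.01 and 0.00 over all genes. The 95% interval of the difference from control lay within 2-fold in both directions for 32 of 33 genes at each dose-rate, the exception each time being Gstm3. It lay within 1.5-fold for 25 genes at the high, 24 at the medium and 26 at the low dose-rate. In the comparisons between irradiated mice, which do not rest on the pools, it lay within 1.5-fold for 28 (high against low), 28 (medium against low) and 30 (high against medium) of 33. Of 22 genes with other probe sets above the filter, 13 had all on the same side for high against control and 9 had an opposite one. The others gave -0.88 and -0.12 for Prdx4, -0.44 to 0.02 for Gstm1 and 0.14 for Gss. For medium against control that of Txn1 gave -0.81.

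**Figure D1:**
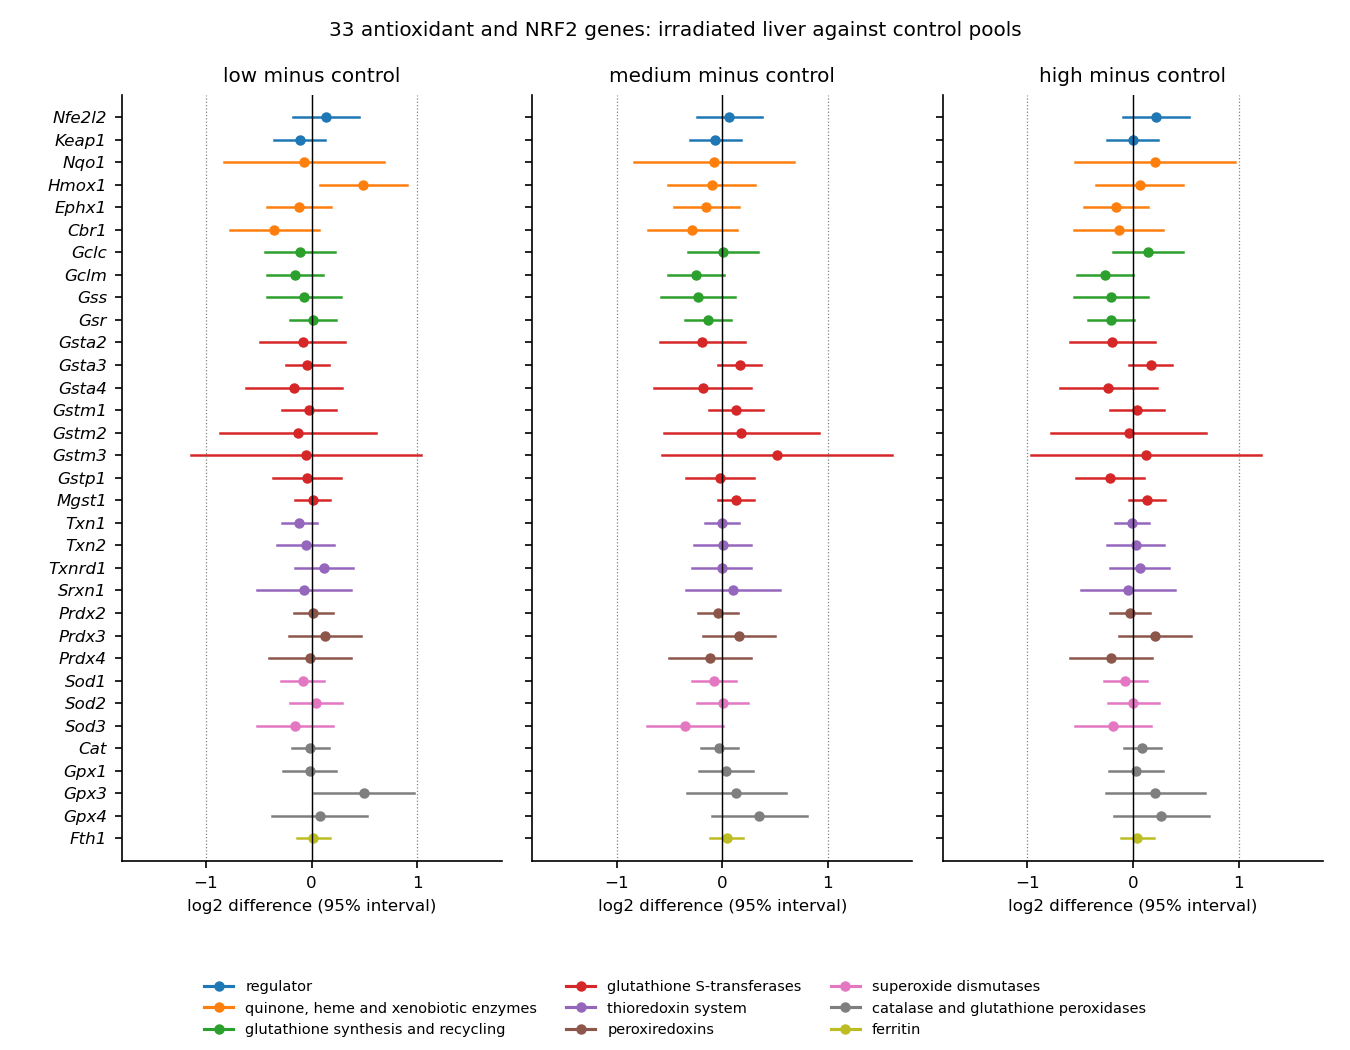
Difference of each of the 33 genes from the control pools at each of the 3 dose-rates, on the log2 scale, as points with 95% intervals (6 mice against 2 pools, limma), coloured by role; dotted lines mark 2-fold. The intervals of Hmox1 and Gpx3 at the low dose-rate lie above 0, those of the other 31 genes there and of all 33 at the medium and high dose-rates include 0, and Gstm3 has the widest.

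The regulator and its inhibitor passed in none of the contrasts between levels. Signal of Nfe2l2 in experiment 1 was 3486 in the pool, 3918, 3459 and 4913 in the low, 3666, 3133 and 3881 in the medium and 3751, 4842 and 4375 in the high mice. Experiment 2 gave 4362 in the pool, 4465, 4208 and 5031 in the low, 4426, 4957 and 4784 in the medium and 3688, 5556 and 5374 in the high mice. The pool lay inside the range of the irradiated mice in both experiments, and the levels overlapped. Nfe2l2 differed from control by 0.22 ± 0.15 at the high dose-rate (SE, adjusted p = 0.794, higher in 5 of 6 mice), by 0.07 ± 0.15 at the medium and by 0.14 ± 0.15 at the low, and high against medium gave 0.15 ± 0.11 (adjusted p = 0.999), or 0.10 without medium mouse 2 of experiment 1 and 0.24 without high mouse 1 of experiment 2. A much dimmer second probe set of Nfe2l2 gave wider differences, 0.64 for high against control and 0.91 for high against low, with the opposite sign for low against control (-0.27). Keap1, which encodes the inhibitor, ran from 949.1 to 1378 over the 20 arrays and differed from control by -0.00 ± 0.12, -0.07 ± 0.12 and -0.11 ± 0.12 at the high, medium and low dose-rate.

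Glutathione is made by glutamate-cysteine ligase, whose catalytic subunit is Gclc and whose modifier subunit is Gclm, and then by glutathione synthetase (Gss), and its oxidised form is reduced by glutathione reductase (Gsr). Gclm and Gsr held the smallest p-values of the list for high against control. For Gclm the signals of experiment 1 were 7088 in the pool, 6674, 6579.7 and 4952 in the low, 6536, 6274 and 5739.8 in the medium and 6305, 5797 and 6338 in the high mice. Those of experiment 2 were 11415 in the pool, 11459, 11913 and 9258 in the low, 9685, 9142 and 8986 in the medium and 7714, 10395 and 9642 in the high mice. All 6 mice at the high dose-rate and all 6 at the medium lay under the pool of their experiment. So did 4 of 6 at the low, and these counts rest on a single pool in each experiment. The irradiated levels overlapped each other. The difference was -0.26 ± 0.13 at the high dose-rate (adjusted p = 0.702), -0.25 ± 0.13 at the medium (adjusted p = 0.826) and -0.16 ± 0.13 at the low (adjusted p = 0.998). A second, dimmer probe set of Gclm gave -0.09, -0.03 and -0.11 for the same contrasts.

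Gsr had signals in experiment 1 of 1564 in the pool, 1533, 1646 and 1497 in the low, 1354, 1419 and 1629.7 in the medium and 1267, 1231 and 1370.1 in the high mice. The arrays of experiment 2 read 1428 in the pool, 1378, 1576 and 1436 in the low, 1216, 1252 and 1336 in the medium and 1181, 1294 and 1419 in the high mice. In experiment 1 every mouse at the high dose-rate was below the pool and below every mouse at the low, while in experiment 2 the highest of the high mice (1419) lay above the lowest of the low mice (1378). Gsr was -0.21 ± 0.10 from control at the high dose-rate (adjusted p = 0.71, lower in 6 of 6 mice), and -0.22 ± 0.07 for high against low (adjusted p = 0.27). At the medium dose-rate it was -0.13 ± 0.10 from control, and at the low 0.01 ± 0.10. The other probe set of Gsr gave -0.26 for high against control and -0.20 for high against low.

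The catalytic subunit Gclc gave signals of 19808 in the pool, 17962, 13797 and 13858 in the low, 19607, 22974 and 18058 in the medium and 23019, 18155 and 23974 in the high mice in experiment 1. Experiment 2 had values of 23217 in the pool, 25425, 27274 and 25638 in the low, 25498, 19299 and 24976 in the medium and 27146, 24463 and 26537 in the high mice. All 3 mice at the low dose-rate of experiment 1 were below its pool and below the 6 mice at the higher dose-rates, whereas in experiment 2 they were above the pool. High against low was 0.51 in experiment 1 and -0.00 in experiment 2, with 0.26 ± 0.11 over both (adjusted p = 0.443). Gss, which ran from 1251 to 2578 over all arrays, was -0.20 ± 0.17, -0.23 ± 0.17 and -0.07 ± 0.17 from control at the high, medium and low dose-rate. In experiment 1 the pool held more Gclm and Gss signal than any of the 9 irradiated mice. In that experiment the pool lay inside the range of the mice for the other 31 genes, and in experiment 2 for all 33. How often a pool lies outside that range over all genes was not counted, so Gclm and Gss are not set apart by it.

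Glutathione S-transferases join glutathione to electrophiles, and 8 were measured. For Gsta3, a major alpha-class transferase of liver, the signals of experiment 1 were 35878 in the pool, 33590, 38956 and 39805 in the low, 39714, 44573 and 43679 in the medium and 39975, 49122 and 49194 in the high mice. Those of experiment 2 were 28345 in the pool, 26158, 25204 and 25916 in the low, 29691, 30556 and 29636 in the medium and 28947, 25358 and 29873 in the high mice. The medium mice of experiment 2 were all above the low mice (25204 to 26158) and above the pool, and in experiment 1 the lowest of the medium mice (39714) lay just under the highest of the low mice (39805). Gsta3 was 0.21 ± 0.07 for high against low (adjusted p = 0.283, higher in 5 of 6 mice) and 0.20 ± 0.07 for medium against low (adjusted p = 0.485, higher in 6 of 6). Against control it was 0.17 ± 0.10 at the high dose-rate (adjusted p = 0.757, with 0.35 in experiment 1 and -0.02 in experiment 2), 0.16 ± 0.10 at the medium (adjusted p = 0.86) and -0.04 ± 0.10 at the low. Without the pool of experiment 1 the high and medium values were 0.05 and 0.04, and without that of experiment 2 they were 0.29 and 0.29. With quantile normalization high and medium against low were 0.12 and 0.12. A second probe set of Gsta3 gave 0.30 for high against low and 0.31 for medium against low. Pericentral hepatocyte markers were also higher, 6 of 6 for medium against low (median 0.26) and 4 of 6 for high against low (median 0.10). The shift was not limited to them. General hepatocyte markers were higher in 8 of 8 (median 0.13) and 7 of 8 (median 0.05) in the same order. Periportal hepatocyte markers were higher in 3 of 4 (median 0.10) and 2 of 4 (median 0.07). No marker of these lists passed the threshold, and the part of these cells in the Gsta3 values was not tested.

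Mgst1, the membrane-bound microsomal transferase, had the smallest spread between mice of the list. Its signals in experiment 1 were 55077 in the pool, 54770, 55143 and 53068 in the low, 58379, 61651 and 61405 in the medium and 60564, 68423 and 67213 in the high mice. In experiment 2 they were 56978 in the pool, 56453, 58307 and 60796 in the low, 63141, 59408 and 63191 in the medium and 57179, 61465 and 55561 in the high mice. The high mice of experiment 1 were all above the low mice and the pool, and in experiment 2 they overlapped the low mice. The difference from control was 0.14 ± 0.08 at the high dose-rate (adjusted p = 0.761), 0.13 ± 0.08 at the medium and 0.01 ± 0.08 at the low. For high against low it was 0.13 ± 0.06 (adjusted p = 0.464). A dim second probe set of Mgst1 gave -0.11 for high against control, the opposite sign.

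Gstp1, the pi-class transferase, which is higher in male than in female mouse liver, gave 54873 in the pool, 47475, 51957 and 40800 in the low, 49731, 46267 and 59023 in the medium and 55796, 45207 and 48246 in the high mice in experiment 1. Experiment 2 gave 58292 in the pool, 63959, 74056 and 58115 in the low, 60338, 73266 and 49659 in the medium and 44044, 54110 and 46143 in the high mice. The 3 high mice of experiment 2 were below the 3 low mice, and the groups of experiment 1 overlapped. Gstp1 was -0.21 ± 0.16 from control at the high dose-rate (adjusted p = 0.796) and -0.19 ± 0.11 for high against medium (adjusted p = 0.999). The other alpha-class genes Gsta2 and Gsta4 were -0.20 ± 0.19 and -0.23 ± 0.22 from control at the high dose-rate, -0.19 ± 0.19 and -0.19 ± 0.22 at the medium, and in low mice -0.08 ± 0.19 and -0.17 ± 0.22. The mu-class genes were 0.04 ± 0.12 (Gstm1), -0.04 ± 0.35 (Gstm2) and 0.13 ± 0.52 (Gstm3) at the high dose-rate, 0.13 ± 0.12, 0.18 ± 0.35 and 0.52 ± 0.52 at the medium, where all 6 mice exceeded their pool for Gstm3, and -0.03 ± 0.12, -0.13 ± 0.35 and -0.05 ± 0.52 at the low. Gstm3 ran from 4278 to 30083 over the arrays, a 7.03-fold range, and its interval for high against control (-0.96 to 1.22) reaches past a 2-fold rise.

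Hmox1 encodes heme oxygenase 1, which breaks down heme and is induced by NRF2 and also made by macrophages that clear red cells. It gave the largest difference of the list between irradiated levels, and the low dose-rate was the higher one, though no contrast passed. Signals in experiment 1 were 428 in the pool, 819.9, 456 and 782 in the low, 415, 376 and 489 in the medium and 418, 397 and 474 in the high mice. Those in experiment 2 were 354 in the pool, 375, 480.4 and 521 in the low, 289, 363 and 285 in the medium and 402, 424 and 342 in the high mice. Low mice 1 and 3 of experiment 1 (820 and 782) were above every other array, low mouse 2 (456) lay among the medium and high mice, and in experiment 2 the 3 low mice were above the 3 medium mice but overlapped the high. Medium against low was -0.59 ± 0.14 (adjusted p = 0.338, lower in 6 of 6 mice) and high against low -0.42 ± 0.14 (adjusted p = 0.27). Low against control was 0.49 ± 0.20 (adjusted p = 0.998, higher in 6 of 6 mice). Within the experiments medium against low was -0.64 and -0.54, and low against control 0.62 and 0.35.

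Macrophage markers were read beside Hmox1, since in bulk liver a change in the number of cells of a type and a change in RNA per cell cannot be told apart. All 8 Kupffer cell markers were past the signal filter. Their summed signal was 19587, 15200 and 19317 in low mice 1, 2 and 3 of experiment 1, and the first and the last of these, which had the highest Hmox1, also had the highest sums of the 20 arrays. The sums ran from 11882 to 18348 at the medium and 14271 to 17228 at the high dose-rate of that experiment, with 14161 in its pool. In experiment 2 they ran from 15636 to 17181 (low), 11379 to 16943 (medium) and 11559 to 18841 (high), with 15811 in the pool. Most Kupffer cell markers lay on the same side as Hmox1 in 3 contrasts, with none past the threshold: 0 of 8 were higher for medium against low (median -0.22), 1 of 8 for high against low (median -0.16) and 6 of 8 for low against control (median 0.18). Neutrophil markers (3 of 5 past the filter) summed to 3371, 458 and 1564 in the same 3 low mice and to at most 1427 elsewhere. Low mouse 1 of experiment 1 also stood apart in the metallothioneins Mt1 and Mt2, metal-binding proteins induced by metals and stress: Mt1 was 11343 there and at most 1302 on the other 19 arrays, and Mt2 5954 there and at most 882. The part of these cells and of this mouse's state in the Hmox1 values was not tested.

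The other genes of this role act on quinones, carbonyls and epoxides. For Nqo1, the quinone reductase widely used as a readout of NRF2, the signals of experiment 1 were 402 in the pool, 473, 529.6 and 723 in the low, 387, 493 and 293 in the medium and 509, 487 and 473 in the high mice. Those of experiment 2 were 360.4 in the pool, 169, 186 and 387 in the low, 236, 303 and 537 in the medium and 539, 242 and 475 in the high mice. The levels overlapped in experiment 1, and in experiment 2 the low mice lay at or below 387 while single medium and high mice reached 537 and 539. Nqo1 was 0.21 ± 0.37, -0.08 ± 0.37 and -0.07 ± 0.37 from control at the high, medium and low dose-rate, and the interval for the high reached from -0.55 to 0.97. For carbonyl reductase Cbr1 the signals were 4113 in the pool, 2520.5, 2788 and 2974 in the low, 3106, 3151 and 2872 in the medium and 3595, 4713 and 2769.8 in the high mice in experiment 1. The arrays of experiment 2 read 4429 in the pool, 3566, 3375 and 5543 in the low, 3028, 4989.5 and 4370.5 in the medium and 3750, 3852 and 5145 in the high mice. The low mice of experiment 1 were all below their pool, and those of experiment 2 spanned theirs. Cbr1 was -0.35 ± 0.20 for low against control (adjusted p = 0.998), or -0.21 without the pool of experiment 1, and -0.13 ± 0.20 for high against control. Ephx1, microsomal epoxide hydrolase, was -0.16 ± 0.15, -0.15 ± 0.15 and -0.12 ± 0.15 from control at the high, medium and low dose-rate.

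**Figure D2:**
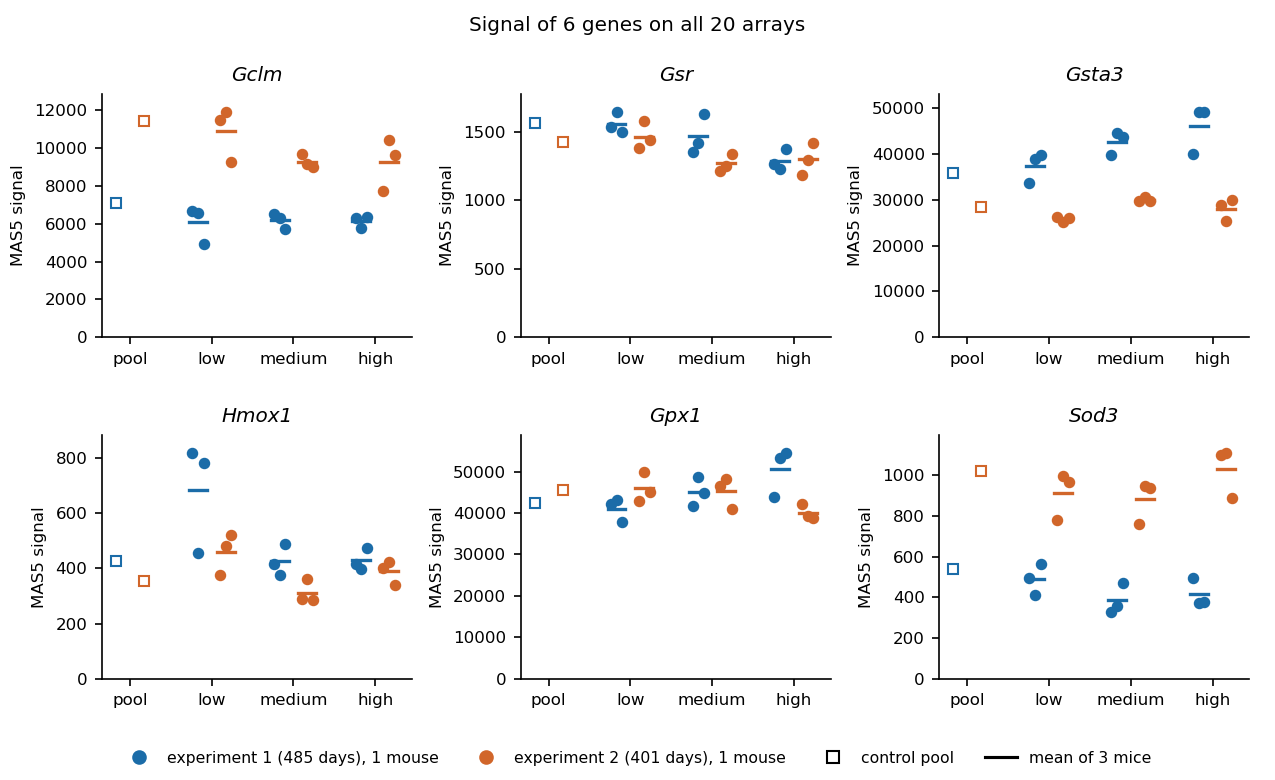
MAS5 signal (linear scale, from 0) of Gclm, Gsr, Gsta3, Hmox1, Gpx1 and Sod3 by dose level; filled circles are single mice, open squares the control pools, bars the mean of 3 mice, blue experiment 1 and orange experiment 2. The high mice lie under their pool for Gclm and Gsr, 2 low mice of experiment 1 stand above all other arrays for Hmox1, Gpx1 runs in opposite directions in the experiments, and Sod3 and Gclm differ more between experiments than between levels.

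Thioredoxins pass electrons to peroxiredoxins and are themselves reduced by thioredoxin reductase, and sulfiredoxin (Srxn1) repairs overoxidised peroxiredoxins. No gene of this system passed in the contrasts between levels. Cytosolic Txn1 was -0.01 ± 0.08, -0.00 ± 0.08 and -0.12 ± 0.08 from control at the high, medium and low dose-rate, the last lower in 6 of 6 mice (adjusted p = 0.998). Mitochondrial Txn2 was 0.03 ± 0.13, 0.00 ± 0.13 and -0.06 ± 0.13, and Txnrd1 was 0.07 ± 0.13, -0.00 ± 0.13 and 0.12 ± 0.13. Srxn1 was -0.05 ± 0.21, 0.10 ± 0.21 and -0.08 ± 0.21, with a 2.07-fold range of signal over the arrays.

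Of the peroxiredoxins, mitochondrial Prdx3 had signals of 5658 in the pool, 5649, 6938 and 9786 in the low, 6496, 6578 and 6926 in the medium and 5691, 7919.7 and 7963 in the high mice in experiment 1. Experiment 2 had values of 6760 in the pool, 5832, 5860.4 and 7202 in the low, 7305, 6428 and 7872 in the medium and 7772, 6679 and 7251 in the high mice. Its highest value belonged to a low mouse (9786), and the levels overlapped in both experiments. Prdx3 was 0.21 ± 0.16 from control at the high dose-rate (adjusted p = 0.809, higher in 5 of 6 mice), and the high and medium mice of experiment 1 were all above their pool. The value rests on the pools: it was 0.07 without that of experiment 1 and 0.35 without that of experiment 2. Cytosolic Prdx2 was -0.03 ± 0.09, -0.04 ± 0.09 and 0.02 ± 0.09 from control at the high, medium and low dose-rate, and Prdx4 of the endoplasmic reticulum was -0.21 ± 0.19, -0.12 ± 0.19 and -0.01 ± 0.19.

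Superoxide dismutases turn superoxide into hydrogen peroxide. For Sod3, the extracellular enzyme, the signals of experiment 1 were 538 in the pool, 492, 413 and 564 in the low, 328, 359 and 471 in the medium and 494, 372 and 378 in the high mice. Those of experiment 2 were 1023 in the pool, 778, 996 and 965 in the low, 761, 945 and 937 in the medium and 1098, 1109.8 and 888 in the high mice. All 6 medium mice were below the pool of their experiment, while the high mice were below it in experiment 1 and on both sides of it in experiment 2. Sod3 was -0.35 ± 0.17 from control at the medium dose-rate (adjusted p = 0.817), -0.19 ± 0.17 at the high and -0.16 ± 0.17 at the low, and its second probe set gave -0.31 at the medium. The cytosolic enzyme Sod1 was -0.07 ± 0.10, -0.08 ± 0.10 and -0.08 ± 0.10 at the high, medium and low dose-rate, and the mitochondrial Sod2 was 0.01 ± 0.12, 0.00 ± 0.12 and 0.04 ± 0.12.

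Hydrogen peroxide is removed by catalase in peroxisomes and by glutathione peroxidases elsewhere. Cat, which encodes catalase, had signals of 32392 in the pool, 31876, 33132 and 30282 in the low, 34910, 31222 and 33884 in the medium and 33945, 31853 and 36649 in the high mice in experiment 1. In experiment 2 they were 26889 in the pool, 26821, 27761 and 26450 in the low, 25726, 23350 and 26314 in the medium and 26605, 31354 and 28871 in the high mice. In experiment 2 the high mice were above the medium mice, and in experiment 1 they overlapped. High against medium was 0.12 ± 0.06 (adjusted p = 0.999), and the differences from control were 0.09 ± 0.08, -0.03 ± 0.08 and -0.01 ± 0.08 at the high, medium and low dose-rate. Gpx3, the secreted glutathione peroxidase, had signals in experiment 1 of 295 in the pool, 486, 361 and 495 in the low, 289.9, 256 and 341 in the medium and 333, 258 and 377 in the high mice. Experiment 2 gave 429 in the pool, 444, 807 and 533 in the low, 698, 488 and 412 in the medium and 463, 528 and 626 in the high mice. All 6 low mice were above their pool. Low against control was 0.50 ± 0.23 (adjusted p = 0.998) and medium against low -0.36 ± 0.16 (adjusted p = 0.59).

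Gpx4, which reduces lipid hydroperoxides, gave 11986 in the pool, 13923, 9579.6 and 18919 in the low, 14078, 19545 and 17388 in the medium and 12312, 22953 and 20097 in the high mice in experiment 1. The arrays of experiment 2 read 20276 in the pool, 17045, 19707 and 23132 in the low, 21997, 22882 and 25557 in the medium and 20700, 18272 and 20600 in the high mice. The 3 levels overlapped in experiment 1, and in experiment 2 the medium mice were all above the high mice and the pool. Gpx4 was 0.27 ± 0.22 from control at the high dose-rate (adjusted p = 0.817), with 0.57 in experiment 1 and -0.03 in experiment 2, and 0.35 ± 0.22 at the medium (adjusted p = 0.86, higher in 6 of 6 mice), and a second probe set of about the same brightness gave 0.10 and 0.12. The high value was 0.09 without the pool of experiment 1, 0.46 without that of experiment 2 and 0.16 without high mouse 2 of experiment 1. Fth1, the heavy chain of the iron store ferritin, had the narrowest range of signal of the list, from 42683 to 50911 over all arrays. It was 0.04 ± 0.08, 0.04 ± 0.08 and 0.01 ± 0.08 from control at the high, medium and low dose-rate.

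Whether the response to dose-rate differed between the experiments was tested with interaction terms. None of the 33 genes passed for high against control (1 of 11206 genes did, 0.00892%) or for high against low (0 of 11206, 0%). At an unadjusted limma p under 0.05 there were 1 and 5 antioxidant genes beside 409 and 792 of all genes. These are 3.03% and 15.2% of the list, beside 3.65% and 7.07% of all genes. The smallest p in both belonged to Gpx1, the abundant cytosolic glutathione peroxidase of hepatocytes. Its signals in experiment 1 were 42393 in the pool, 42216, 43195 and 37856 in the low, 41813, 48625 and 44792 in the medium and 43909, 53288 and 54521 in the high mice. Experiment 2 had values of 45538 in the pool, 42856, 49865 and 45156 in the low, 46540, 48199 and 40914 in the medium and 42067, 39245 and 38852 in the high mice. All 3 high mice of experiment 1 were above all 3 low mice, and all 3 high mice of experiment 2 were below all 3 low mice. High against low was 0.30 in experiment 1 and -0.20 in experiment 2, a difference of -0.49 ± 0.14 (adjusted p = 0.527). High against control was 0.25 and -0.19, a difference of -0.43 ± 0.20 (adjusted p = 0.998). Both differences depended on the scaling of the arrays. With quantile normalization that for high against low was -0.26 and that for high against control -0.15.

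Gclc followed for high against low, with a difference between experiments of -0.52 ± 0.19 (adjusted p = 0.629), and Gsta3 for high against control, at 0.35 in experiment 1 and -0.02 in experiment 2 (difference -0.37 ± 0.19, adjusted p = 0.998). Mgst1 (-0.28 ± 0.10) and Gstp1 (-0.53 ± 0.20) had differences between experiments for high against low with adjusted p = 0.629 each. Another 6 contrasts had every mouse of one experiment above its pool and every mouse of the other below. These were Txn2 and Fth1 at the high, Txn2 and Srxn1 at the medium, and Gclc and Prdx2 at the low dose-rate, with unadjusted p from 0.0468 to 0.371 for the difference between experiments and none past the threshold. With Gpx1 at the high dose-rate they make 3, 2 and 2 of 33 genes (9.09%, 6.06% and 6.06%) at the high, medium and low dose-rate, where 9.83%, 9.41% and 10.8% of all genes showed the same, so the shares are near that background. None of the 33 genes had irradiated levels that did not overlap, in the same direction, in both experiments. Among all genes 1.23% did so for high against low, 0.919% for medium against low and 0.33% for high against medium.

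More of the antioxidant genes differed between the experiments than between dose-rates. Of the 33, 19 passed for experiment 2 against experiment 1 by limma (12 higher, 7 lower in experiment 2), a share of 57.6% where 42.7% of all genes passed. Sod3 was 1.11 ± 0.10 higher in experiment 2 (adjusted p = 1.5e-08), and its signals of 761 to 1110 there did not overlap those of 328 to 564 in experiment 1. Gclm was 0.67 ± 0.07 higher (adjusted p = 1.62e-07) and Gsta3 0.56 lower (-0.56 ± 0.05, adjusted p = 6.5e-08), also with no overlap over the 10 arrays of each. Txnrd1 did not overlap either, with at most 3157 in experiment 1 and at least 3183 in experiment 2. The share of all genes without such overlap was not counted. Gpx3 was 0.63 ± 0.12 higher (adjusted p = 0.000322). Nqo1 was -0.54 ± 0.20 (adjusted p = 0.0343), a call that ended without low mouse 1, 2 or 3 or medium mouse 2 of experiment 1, or without low mouse 1 or 2, medium mouse 1 or high mouse 2 of experiment 2 (adjusted p = 0.0509 to 0.0713, with differences from -0.44 to -0.53).

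By role, both regulators rose (Nfe2l2 by 0.25 ± 0.08, Keap1 by 0.22 ± 0.06), as did 3 of the 4 genes of glutathione synthesis and recycling (Gclm, Gclc by 0.40 ± 0.09 and Gss by 0.39 ± 0.09). Txnrd1 rose by 0.54 ± 0.07, Gpx4 by 0.43 ± 0.12, Cbr1 by 0.37 ± 0.11, Gstm1 by 0.29 ± 0.07 and Txn2 by 0.23 ± 0.07. Lower in experiment 2 were Hmox1 (-0.36 ± 0.11), Sod1 (-0.30 ± 0.05), Cat (-0.29 ± 0.05), Sod2 (-0.24 ± 0.06) and Txn1 (-0.23 ± 0.04), beside Gsta3 and Nqo1. The other 14 genes did not pass, among them Prdx3 (0.00 ± 0.09), Mgst1 (-0.00 ± 0.04), Fth1 (-0.02 ± 0.04) and Prdx2 (-0.02 ± 0.05).

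Other probe sets of some of these genes had the opposite sign. Of the 15 called genes with other probe sets above the filter, 9 had all of them on the same side (Cat, Gss, Gsta3, Keap1, Nfe2l2, Sod2, Sod3, Txn1 and Txn2) and 6 had at least 1 on the opposite side. For Gclm the second probe set was -0.17, and the mean of both gave 0.25, for Gclc it was -0.09, and for Txnrd1 the other 2 were -0.37 and -0.63. Gpx4 (-0.01), Gstm1 (-0.27 and -0.28, with another at 0.26) and Sod1 (0.05) were the others, and Hmox1, Nqo1, Cbr1 and Gpx3 had 1 probe set. Control probes for both ends of the Gapdh transcript, which track RNA quality and labelling, gave 3′/5′ ratios of 0.69 to 0.769 on the arrays of experiment 1 against 0.871 to 0.993 on those of experiment 2, and Actb gave 1.85 to 2.15 against 2.25 to 2.61. Cell type markers differed as well: 6 of 6 stellate cell and fibroblast markers were higher in experiment 2 (4 called, median 0.40), 1 of 6 pericentral hepatocyte markers was higher (2 called, median -0.30), and 6 of 8 hepatocyte markers were higher (4 called, median 0.10). The part of these shifts in the differences was not tested. The experiments also differed in days of exposure and in dose-rates, and these cannot be told apart.

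**Figure D3:**
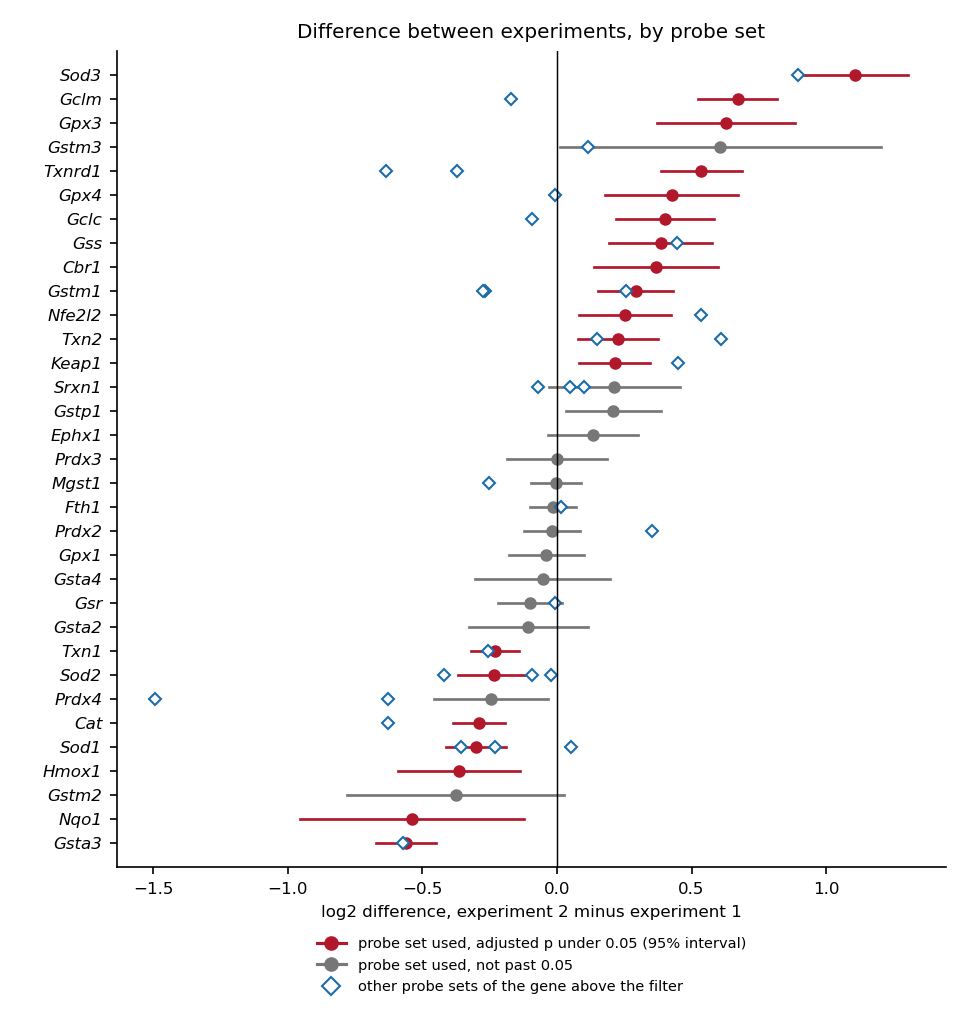
Experiment 2 minus experiment 1 for each gene on the log2 scale; circles are the probe set used with its 95% interval (red where the limma adjusted p was under 0.05, grey otherwise) and open diamonds the other probe sets of the gene above the filter. Sod3, Gclm and Gpx3 lie farthest above 0 among the red points and Gsta3 and Nqo1 farthest below, and the diamonds of Gclm, Gclc and Txnrd1 lie on the other side of 0.

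The genes differed widely in how much mice of the same group varied. The within-group SD on the log2 scale (12 degrees of freedom over 18 mice) was 0.75 for Gstm3, 0.50 for Gstm2 and 0.48 for Nqo1, against 0.06 for Mgst1 and Fth1, 0.07 for Txn1 and 0.09 for Cat. The median over the 33 genes was 0.19, beside 0.24 over all genes, and Gstm3 was more variable than 94.9% of all genes while Mgst1 was more variable than 0.161%. Low mouse 3 of experiment 1 had the highest signal of the 9 irradiated mice of its experiment for 11 genes, among them Nfe2l2, Nqo1, Gstm2, Gstm3, Srxn1 and Prdx3, and high mouse 2 had it for 10, among them Gsta2, Gsta4, Gstm1 and Ephx1. These are 33.3% and 30.3% of the list, where the same mice were highest for 10.5% and 11.8% of all genes. They were lowest for 7 and 1 genes of the list (21.2% and 3.03%), beside 11.0% and 13.1% of all genes. Low mice 1 and 2 of experiment 1 were also lowest for 7 genes each (21.2%), beside 11.6% and 15.4% of all genes. In experiment 2 low mouse 2 was highest for 10 genes (Gclc, Gclm, Gss and Gsr among them) and medium mouse 3 for 9 (Gstm2, Gstm3 and Srxn1 among them), or 30.3% and 27.3% beside 14.4% and 12.1% of all genes. They were lowest for 5 and 3 genes of the list (15.2% and 9.09%), beside 15.7% and 10.4% of all genes.

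Deviations from the group mean were set against each other over the 18 mice, as a description with no test, and the pairs named were chosen after their values were seen, as the 6 highest and 2 lowest of 528. The highest were Gsta2 with Gsta4 (r = 0.92, rho = 0.88, r = 0.90 without the 2 mice farthest from the median of Gsta2) and Gsta3 with Prdx2 (r = 0.91, 0.82 without 2 mice, 0.985 in experiment 1 and 0.61 in experiment 2). Next came Ephx1 with Gsta4 (0.83), Gstm2 and Gstm3 each with Srxn1 (0.81 and 0.81) and Gstm2 with Gstm3 (0.80). Gstm2 with Gstp1 (-0.82) and Gclc with Gsta4 (-0.81) ran in opposite directions. All 8 kept their sign in each experiment. Pairs chosen for an extreme r over the same mice would mostly do so, and also without 2 mice, so these values add no support. Part of this ran along the number of the mouse in its group. In low, medium and high mice of experiment 2, Gstm2 deviated by -0.60, -0.56 and -0.40 in mouse 2. In mouse 3 it was 0.75, 0.66 and 0.50, but 0.53, -0.37 and -0.28 in experiment 1. In mouse 1 of experiment 1 Gsta3 deviated by -0.15, -0.10 and -0.20 and Prdx2 by -0.14, -0.09 and -0.16. What the numbers stand for is not in the labels, and their part was not tested. Over all 528 pairs the median r was 0.074, beside 0.0016 over all pairs of genes tested. The genes share arrays, transferases of a class are close in sequence, and the probe sets of Gstm3 and Srxn1 are of a kind that may also match other transcripts.

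**Figure D4:**
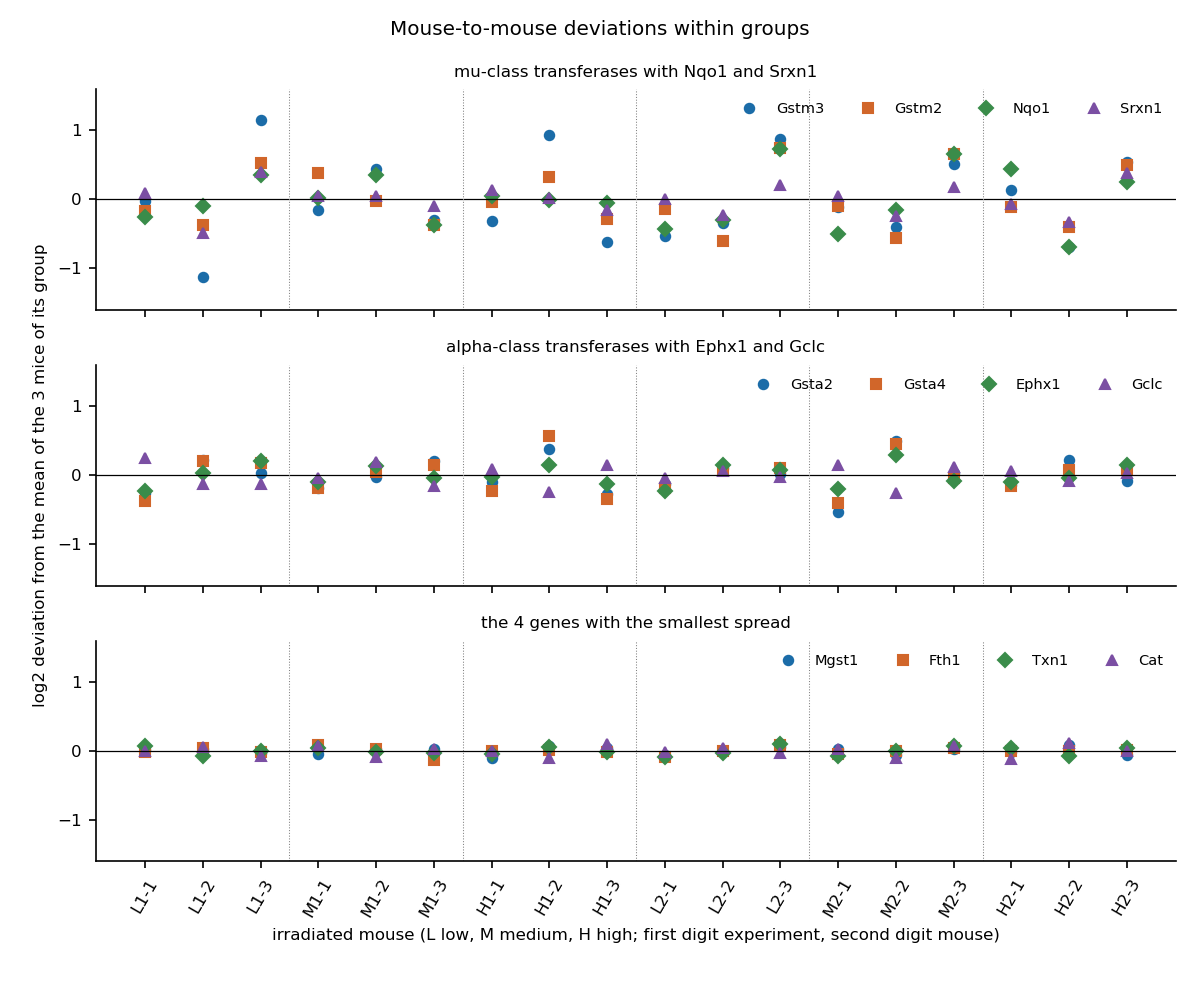
Deviation of each of the 18 irradiated mice from the mean of its 3-mouse group on the log2 scale, for 12 genes; L, M and H stand for the low, medium and high groups, the first digit is the experiment and the second the mouse, and dotted lines part the groups. Gstm3, Gstm2, Nqo1 and Srxn1 are above their group means together in mice L1-3, L2-3, M2-3 and H2-3. These mice all carry the number 3, while in M1-3 and H1-3 the same genes are below their group means. Gsta2 and Gsta4 move together with Gclc opposite, and Mgst1, Fth1, Txn1 and Cat stay close to 0 in all 18 mice.

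Correlations of 3 gene pairs were computed over the 9 irradiated mice of each experiment, 6 relations in all, with exact permutation tests. The values were not centred on group means and the permutations ran across levels, so differences between levels enter these values. The probe set of Gstm1, like that of Gstm3, is of a kind that may also match other transcripts. Gstm1 with Gstm3 gave r = 0.68 in experiment 1 (exact permutation p = 0.0418, adjusted p = 0.16, rho = 0.55, r = 0.73 without the 2 farthest mice) and r = 0.64 in experiment 2 (exact permutation p = 0.0658, adjusted p = 0.16, rho = 0.52, r = 0.58 without 2 mice). Gsta2 with Gstm1 gave r = 0.61 (exact permutation p = 0.0799, adjusted p = 0.16, rho = 0.55, 0.74 without 2 mice) and r = 0.29 (exact permutation p = 0.457, adjusted p = 0.548, rho = 0.17), the latter resting on 2 mice, since it was -0.34 without them. Nqo1 with Gclc gave r = -0.33 (exact permutation p = 0.393, adjusted p = 0.548, rho = -0.25, -0.20 without 2 mice) and r = 0.08 (exact permutation p = 0.896, adjusted p = 0.896, rho = 0.10, -0.02 without 2 mice). The exact permutation p of rho ran from 0.133 to 0.81 over the 6 relations (adjusted 0.324 to 0.81). None of the 6 passed after adjustment.

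The 7 genes with a match to the response element near the start were set beside the 21 with a window and no match, as a description with no test. Their median difference was 0.07 for high against control (4 of 7 above 0) beside 0.01 for those without (11 of 21 above 0). It was 0.03 beside 0.07 for high against low and 0.07 beside -0.00 for medium against control. For experiment 2 against experiment 1, 5 of the 7 and 11 of the 21 passed, where 42.7% of all genes did, with medians of 0.21 and 0.00. Of the 5, Gclm, Txnrd1 and Nfe2l2 were higher in experiment 2 and Gsta3 and Sod1 lower, and at least 1 other probe set of Gclm, Txnrd1 and Sod1 had the opposite sign.

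Other genes of NRF2 and antioxidant biology were read from a second list of 68 that holds none of the 33, of which 57 were measured past the filter: MAF partners and ubiquitin ligase parts, cysteine and glutathione turnover, further transferases, NADPH supply, and heme, iron and metal binding. None passed by limma in any of the 6 contrasts between levels, and 5, 3, 0, 7, 4 and 1 had an unadjusted p under 0.05 for high, medium and low against control, high against low, medium against low and high against medium. These are 8.77%, 5.26%, 0%, 12.3%, 7.02% and 1.75% of the list, near the 7.24%, 6.05%, 3.87%, 10.1%, 7.95% and 3.78% of all genes. For high against control 30 were above 0 and 27 below, with a median of 0.04 beside 0.01 over all genes. The smallest p-values belonged to Aldh1a1, a cytosolic aldehyde dehydrogenase, to Pgd, which makes NADPH in the pentose phosphate pathway, and to Chac1, which degrades glutathione.

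Signals of Aldh1a1 in experiment 1 were 38324 in the pool, 40820, 39597 and 40459 in the low, 43634, 46560 and 42418 in the medium and 45258, 50703 and 52320 in the high mice. In experiment 2 they were 41157 in the pool, 38988, 40267 and 42629 in the low, 48846, 45731 and 49758 in the medium and 45384, 41430 and 43669 in the high mice. Every high mouse was above its pool, by little in experiment 2, and the difference was 0.22 ± 0.09 (adjusted p = 0.585). Pgd had 2338 in the pool, 3311, 2761 and 4959.5 in the low, 3214, 3008 and 3449.8 in the medium and 3025, 4918 and 3038 in the high mice in experiment 1. Experiment 2 gave 3674 in the pool, 3623, 3038 and 5344 in the low, 3954, 5614 and 5109 in the medium and 5643, 4179 and 5126 in the high mice. All 6 high mice were above their pools, within the range of the low and medium mice in experiment 1, and the difference was 0.52 ± 0.23 (adjusted p = 0.64). For Chac1 they were 459 in the pool, 527, 540.0 and 300.2 in the low, 199, 207 and 369 in the medium and 339.8, 369 and 270.5 in the high mice in experiment 1. The arrays of experiment 2 read 538 in the pool, 587, 715 and 298 in the low, 353, 337 and 437 in the medium and 341, 281 and 322 in the high mice. All 6 high and all 6 medium mice were below their pools, as was 1 low mouse in each experiment, and the difference was -0.63 ± 0.29 (adjusted p = 0.664). For experiment 2 against experiment 1, 24 of the 57 passed (16 higher, 8 lower), 42.1% beside 42.7% of all genes.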

How the data were processed

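RNA from mouse liver was read on 20 arrays, 18 of single mice and 2 of control pools. The authors deposited MAS5 signals, a linear intensity, per the submitters' processing notes; the MAS5 version and the scaling target are not given in the sources used here, and the values show a trimmed mean of 500 (2% trimmed) on every array. From these, log2(signal + 7.12) was computed, with the 10th percentile of the signals as the added constant. Of 45101 probe sets, 34945 have 1 gene symbol in the platform annotation, and a probe set was kept when its mean signal was at least the median of all means (84.9). The probe set with the highest mean stood for a gene. limma 3.58.1 (R 4.3.3) was fitted over all 11206 genes with terms for level and experiment (15 residual degrees of freedom), and with their interaction (12), with empirical Bayes moderation, a variance trend and Benjamini-Hochberg adjustment at 0.05. The script was tested on simulated data. No 2 arrays were identical, and the highest correlation between arrays was 0.943.

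The genes, lists and tests were chosen with earlier results of these data known. Every gene is accounted for. Values in each sample are given by a fixed rule: the 8 smallest p-values in high against control, the 3 smallest in each other contrast between levels, the 5 called genes with the largest difference between experiments, the 2 smallest in each interaction, and 3 genes of the second list. The pairs of covarying genes were chosen after their values were seen. Interactions at the low and medium dose-rate were also added after the data were seen. Replicate numbers were not used to pair mice across groups in the main fit. Alternatives covered the pseudocount, filter, probe set, normalization, variance trend, pool weights, each experiment alone and each array left out.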

Additional observations from a re-analysis of the deposited data

How the results depend on the processing

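The count of antioxidant genes called was 0 under every alternative run in the 6 contrasts between levels and the 2 interactions, and between experiments it was 16 to 21 (18 to 21 with 1 array left out). Of 1050 alternatives for 32 values of single genes, 1039 kept direction and side of the threshold. Most of these values were not past the threshold in the main fit, so keeping its side says little, and size was not counted. Mgst1 for high against control (0.14) became 0.06 with quantile normalization, 0.04 with median-centred arrays, 0.01 as the mean of its probe sets and 0.25 with experiment 1 alone. Nfe2l2 there (0.22) became 0.12 with median-centred arrays and 0.43 as the mean of its probe sets. With experiment 2 alone, high against control turned to -0.018 for Gsta3 and to -0.032 for Gpx4, since their difference lay in experiment 1. The call of Nqo1 between experiments ended under 9 alternatives (adjusted p = 0.0508 without a variance trend). The correlation of Nqo1 with Gclc in experiment 2 turned to -0.032 with quantile normalization, and the cause was not tested. Median-centring moved the all-gene median of high against control by -0.101. The background counts of all genes were less stable, and they rest on the pools: high against control gave 0 genes without the pool of experiment 1, 22 without that of experiment 2, 0 in each experiment alone, 374 with pools weighted by their mice, 16 with only both levels fitted, 5 without a variance trend, 3 without an experiment term and 5 without high mouse 3 of experiment 2. Medium against control gave 0 and 20 without each pool and 267 with weights, low against control 13 without the pool of experiment 2 and 46 with weights, and the interaction for high against control 103 with weights. High against low gave 18 genes without low mouse 3 of experiment 1 and 20 without low mouse 3 of experiment 2. With the replicate block, fitted over irradiated mice alone, 0 antioxidant genes passed in high against low, medium against low or high against medium. Over all genes, 7 of 18 same-number pairs had correlated deviations over 0.1 (range -0.154 to 0.307). Mice numbered 1 gave 0.156, 0.156 and 0.307 in experiment 1 and 0.0748, -0.0275 and -0.154 in experiment 2. Some genes of the list also followed the number, so this check does not settle whether the numbers pair mice. The main fit left mice unpaired, and pools cannot be paired. The number of arrays limits precision.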
